A study of Mus musculus with 12 samples.

Results

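The Hox genes encode homeodomain transcription factors that lie in 4 genomic clusters, Hoxa to Hoxd. The members described here are all rows of the count tables whose Ensembl mouse identifier carries a Hox cluster symbol. They number 38 of 38924 counted genes, with 11 in Hoxa, 10 in Hoxb, 9 in Hoxc and 8 in Hoxd. The gene name table lists 39 such symbols, and the remaining one, Hoxd4, was not analysed here.

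All libraries came from E7.25 mouse embryos of the Foxa2Cre:Rosa26-YFP line, in which Cre driven from Foxa2 switches on a YFP reporter. A YFP-positive cell therefore has a history of Foxa2 activity and need not express the gene when sorted. The 4 groups, with 3 libraries each, were YFP-positive cardiac mesoderm (termed ventricular by the submitters), YFP-negative cardiac mesoderm (termed non-ventricular), EPCAM+ endoderm and KDR+ hematopoietic mesoderm. No treatment is listed. The number of embryos per library, the gates for cardiac mesoderm and whether replicates came from separate litters are not given in the sources used here, so p-values measure the spread between these libraries only.

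Within a cluster, Hox genes are numbered by paralog group from the 3′ end, and the low-numbered genes are switched on first during gastrulation, in and beside the posterior primitive streak. Higher-numbered genes follow later and further back, an order called temporal and spatial collinearity. HOX proteins bind DNA together with PBX and MEIS proteins of the TALE class, Wnt, FGF and retinoic acid signals open and extend the clusters, and Polycomb complexes keep them silent elsewhere. In mesoderm, Hoxb1 and Hoxa3 are known from second heart field progenitors, and Hoxb4 from blood progenitors.

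Each library held 4472800 to 7888631 counts in genes, so that 3 counts, used here as the limit of detection, corresponded to 0.355 to 0.720 CPM. CPM is the count per 1000000 counts in genes, here after TMM scaling of the library sizes. Of the marker lists, Tal1 reached 469, 355 and 269.6 CPM in hematopoietic mesoderm, and Mesp1 lay between 11.4 and 53.9 CPM in the 6 cardiac libraries. In hematopoietic mesoderm 13 of 14 hematopoietic and endothelial markers, the globin gene Hbb-bh1 among them, passed 3 counts in at least 1 library. The remaining marker, the globin gene Hba-x, had no count in any type. The 10 visceral endoderm markers summed to 2151 to 5949 CPM in the endoderm libraries, beside 1450 to 1844 CPM for 11 definitive endoderm markers. Markers of both lists were thus counted, and the share of each kind of endoderm in these libraries was not tested. Foxa2 was at 0.415, 0 and 5.90 CPM in YFP-positive cardiac mesoderm and at 0 in all 3 YFP-negative libraries. One library stood apart in its Hox values: YFP-positive replicate 2 summed to 13.5 CPM over all Hox genes, against 78.5 and 64.6 CPM in replicates 1 and 3.

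Hoxd1 and Hoxb1, both of paralog group 1, were the members with the highest levels per length of transcript, and the 250 bases before their annotated starts are shown for reference (RefSeq, GRCm38.p6, plus strand). The Hoxd1 stretch is chr2:74762730-74762979 and the Hoxb1 stretch is chr11:96365508-96365757. Capitals mark the letters TGATNNAT on either strand, a form of the site that a PBX-HOX pair recognises.
Hoxd1: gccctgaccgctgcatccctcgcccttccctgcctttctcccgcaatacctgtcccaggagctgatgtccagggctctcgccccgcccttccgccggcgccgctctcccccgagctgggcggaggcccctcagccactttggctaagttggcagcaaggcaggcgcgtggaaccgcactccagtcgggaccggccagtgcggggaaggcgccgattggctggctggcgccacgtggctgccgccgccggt
Hoxb1: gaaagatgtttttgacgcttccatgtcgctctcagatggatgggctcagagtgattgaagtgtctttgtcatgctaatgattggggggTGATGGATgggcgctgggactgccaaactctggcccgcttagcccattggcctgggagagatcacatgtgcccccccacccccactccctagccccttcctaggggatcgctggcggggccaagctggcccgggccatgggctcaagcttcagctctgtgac

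The promoter table held 23 windows of 300 bases for 21 of the 38 members. TGATNNAT was found in 4 of these windows (Hoxa2, Hoxb1, Hoxb8 and 1 of the Hoxd11 windows) and in 8.85% of all 32851 promoter windows of that length. In Hoxb1 it began 162 bases before the start. Searched on both strands, TTTATG, a CDX site, was in 4 Hox windows and 11.9% of all, AGGTCA, a retinoic acid receptor motif, in 6 and 16.3%, and TGACAG, a MEIS site, in 2 and 19.2%. In Hoxd3 the TTTATG and AGGTCA matches overlap. None of the 4 motifs was found in the Hoxd1 window, which held 29 CpG dinucleotides against a median of 7 over all windows.

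Most Hox genes gave few counts or none. No count was recorded in any library for 11 of the 38 members, and 15 never exceeded 3 counts. Of the 23 that did, 10 passed 3 counts in 1 library only and 8 in 2 to 5 libraries. Hoxb1, Hoxb4, Hoxd1 and Hoxd13 were among the 5 that passed in at least 6 libraries. By paralog number, all 3 genes of group 1 exceeded 3 counts somewhere, as did 6 of 8 in groups 2 to 4, 5 of 11 in groups 5 to 8 and 9 of 16 in groups 9 to 13. The Hoxc cluster stayed lowest: 6 of its 9 genes had no count, and the cluster totalled 13 counts over the 12 libraries.

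**Figure D1:**
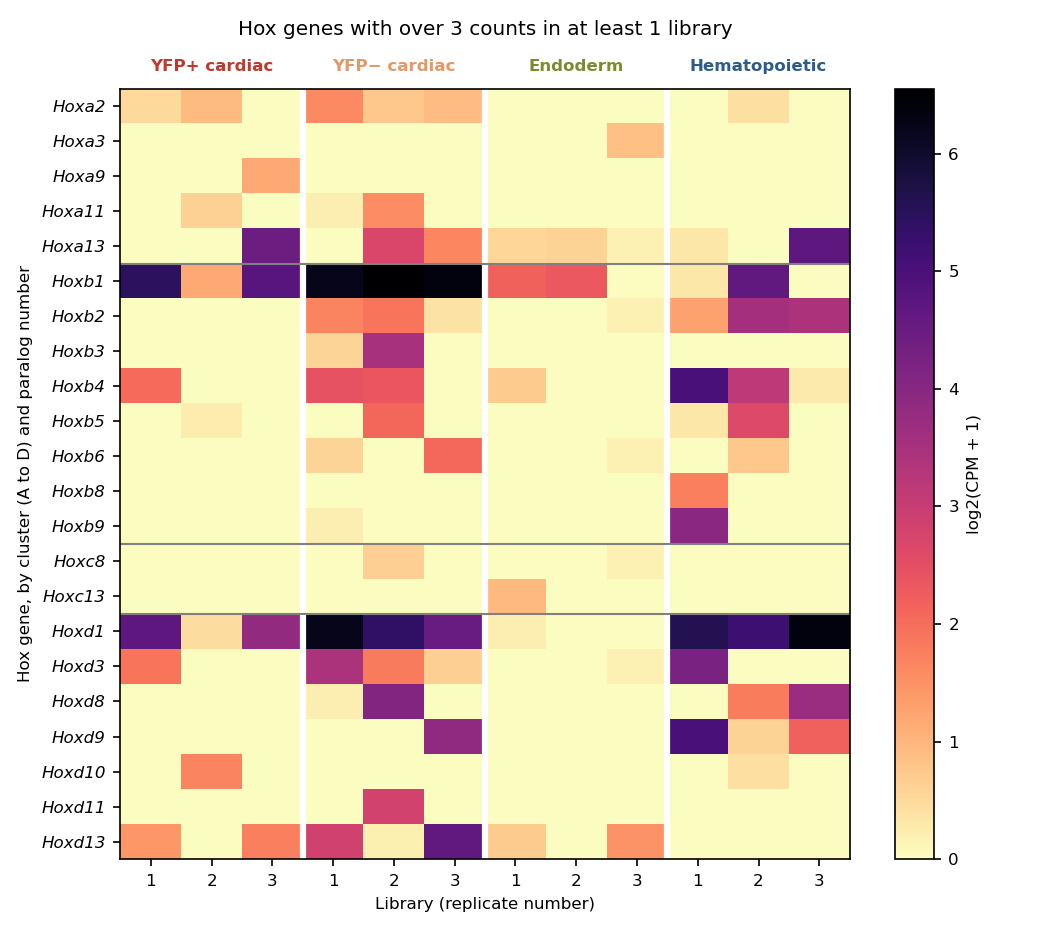
Level of 22 Hox genes with over 3 counts in at least 1 library, as log2(CPM + 1) by colour, with 1 column per library and rows ordered by cluster and paralog number. The rows of Hoxb1 and Hoxd1 are coloured in most mesoderm libraries, whereas most other members are coloured in 1 or a few.

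Members with over 3 counts numbered 6, 4 and 6 in the YFP-positive libraries, 8, 14 and 9 in the YFP-negative, 4, 2 and 2 in endoderm and 8, 8 and 5 in hematopoietic mesoderm. Endoderm thus had the fewest Hox genes on average, with its highest library level with the lowest mesoderm library, although its libraries held the most genes of any kind over 3 counts (15635 to 15890, against 10523 to 13878 in the mesoderm libraries). The members over 3 counts in all 3 libraries of a type included Hoxb1 in YFP-positive cardiac mesoderm, Hoxa2, Hoxb1, Hoxd1 and Hoxd3 in YFP-negative cardiac mesoderm, and Hoxb2 and Hoxd1 in hematopoietic mesoderm. No member met this in endoderm.

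Summed over all members, Hox RNA was 78.5, 13.5 and 64.6 CPM in YFP-positive, 186, 192 and 174 CPM in YFP-negative, 6.97, 4.51 and 3.31 CPM in endoderm and 203, 91.8 and 131 CPM in hematopoietic libraries. The endoderm values lay below all 9 mesoderm values, and the YFP-negative values above all YFP-positive values. In bulk libraries such as these, fewer expressing cells and less RNA per cell cannot be told apart. Paralog group 1 made up 77.0% of the mean summed level in YFP-positive libraries (CPM, not corrected for transcript length). The YFP-negative share was 77.5%, beside 58.3% in hematopoietic mesoderm and 53.5% in endoderm. By library it ran from 62.3% to 89.9% in YFP-positive, 71.9% to 86.0% in YFP-negative and 51.0% to 69.4% in hematopoietic libraries. Endoderm libraries had 54.5%, 88.6% and 3.57%, from only 44, 35 and 28 Hox counts, so the endoderm share is not set apart from the others.

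The other paralog groups were less even between libraries. Groups 2 to 4 summed to 49.9, 19.0 and 9.84 CPM in hematopoietic mesoderm and to 18.9, 20.3 and 2.02 CPM in YFP-negative cardiac mesoderm. Groups 9 to 13 summed to 46.8, 0.863 and 28.3 CPM in hematopoietic mesoderm, 6.52, 13.7 and 39.3 CPM in YFP-negative and 1.66, 2.73 and 24.3 CPM in YFP-positive cardiac mesoderm. The sums of the high-numbered genes differed widely between libraries of a type, and their ranges overlapped among the 3 mesoderm types.

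**Figure D2:**
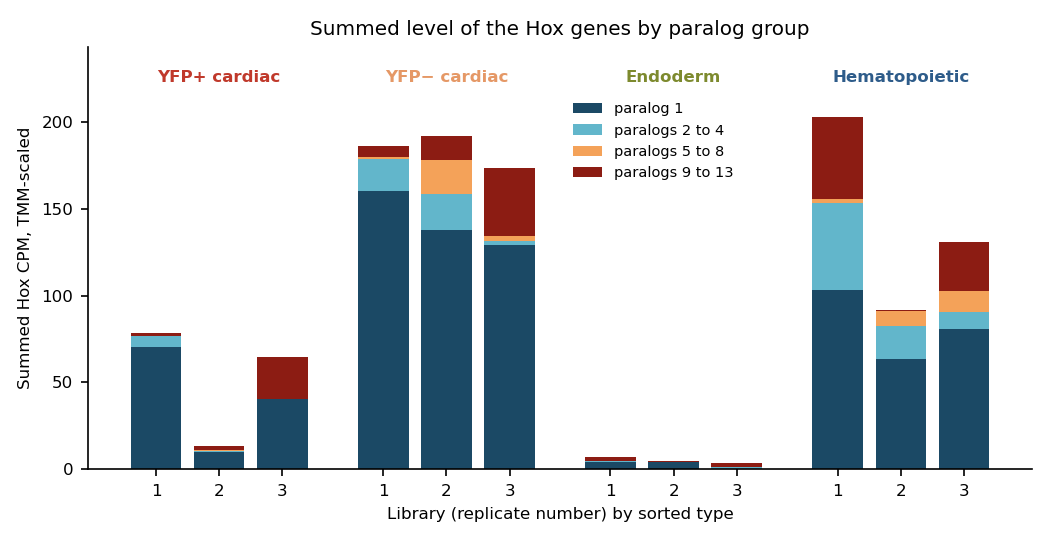
Summed TMM-scaled CPM of the 38 Hox genes in each of the 12 libraries, stacked by paralog number; the vertical axis starts at 0. Paralog group 1 is the main part of every mesoderm bar, and the endoderm bars reach at most 6.97 CPM.

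Split by cluster, the mean summed level in YFP-positive, YFP-negative, endoderm and hematopoietic libraries was 11.9, 18.6, 0.896 and 28.4 CPM for Hoxa, and 24.6, 93.3, 2.78 and 35.9 CPM for Hoxb. Without members that share exon bases with another gene, the Hoxa means were 7.33, 3.77, 0.422 and 8.43 CPM. Hoxd came to 15.6, 71.9, 0.895 and 77.5 CPM, and Hoxc to 0, 0.283, 0.356 and 0 CPM. The SD over 3 libraries was close to the mean for Hoxa in hematopoietic mesoderm (25.8), Hoxb in YFP-positive cardiac mesoderm (22.4) and Hoxd in YFP-positive cardiac mesoderm (13.2). It was smaller relative to the mean in YFP-negative libraries, at 17.3 for Hoxb and 16.2 for Hoxd.

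Hoxd1 (ENSMUSG00000042448.4, chr2:74762980-74765142, plus strand, GRCm38), the 3′-most gene of its cluster, was present in all 3 mesoderm types and all but missing from endoderm. Its level was 24.5, 0.364 and 13.1 CPM in YFP-positive cardiac mesoderm, 74.0, 40.9 and 21.9 CPM in YFP-negative cardiac mesoderm, and 47.5, 35.9 and 80.8 CPM in hematopoietic mesoderm. Endoderm had 1 count in replicate 1 (0.158 CPM) and none in replicates 2 and 3. Every mesoderm library was above every endoderm library, YFP-positive replicate 2 being the lowest mesoderm library at 2 counts.

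Hoxd1 was the only member called in any pair of types, at an adjusted p under 0.05 over all 14170 tested genes. It was higher than in endoderm by a log2 fold change of 7.56 ± 1.54 (SE, adjusted p = 0.0272) in YFP-positive cardiac mesoderm, where 1.54% of all tested genes were called. The difference was 9.42 ± 1.61 (adjusted p = 0.0108) in YFP-negative cardiac mesoderm, with 1.31% of all tested genes called. For endoderm against hematopoietic mesoderm it was -9.68 ± 1.63 (adjusted p = 0.00542), with 5.65% called. Because endoderm held a single count, these fitted sizes depend on the prior count, and the direct ratio of pooled counts per depth is imprecise. That ratio was 273 (95% exact interval 48.5 to 10853) for YFP-positive, 997 (178 to 39420) for YFP-negative and 1211 (217 to 47889) for hematopoietic mesoderm. The intervals cover counting error only.

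Of these calls, the one against hematopoietic mesoderm held in all 6 fits that left out 1 library of the pair (adjusted p 0.00741 to 0.0452). The YFP-negative call was lost without any one of the 3 endoderm libraries (adjusted p = 0.0638, 0.0705 and 0.0793 without replicates 1, 2 and 3). The YFP-positive call held only without YFP-positive replicate 2 (adjusted p = 0.00522) and was lost in the other 5 fits: without endoderm replicates 1, 2 and 3 (0.114, 0.158 and 0.170) and without YFP-positive replicates 1 and 3 (0.0758 and 0.0505).

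**Figure D3:**
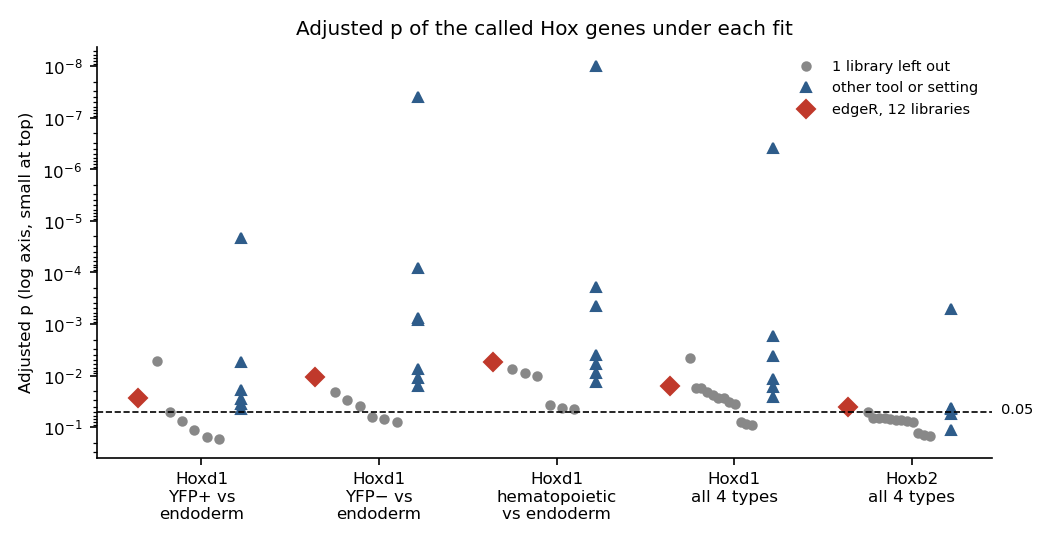
Adjusted p of each called Hox gene and comparison, on a log axis with small values at the top: diamonds for the edgeR fit to 12 libraries, circles for fits without 1 library and triangles for other tools or settings. Hoxd1 in hematopoietic mesoderm against endoderm stays above the dashed line at 0.05 in every fit, and the circles of Hoxb2 all lie below it.

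Between the mesoderm types, Hoxd1 passed no test. YFP-positive and YFP-negative libraries overlapped (log2 fold change -1.85 ± 1.08, adjusted p = 0.758), as did YFP-negative and hematopoietic libraries (-0.26 ± 1.04, adjusted p = 0.949). All 3 YFP-positive values were below all hematopoietic values, and the difference did not pass (-2.11 ± 1.08, adjusted p = 0.307).

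Hoxb1 (ENSMUSG00000018973.2, chr11:96365752-96368256, plus strand), among the first Hox genes of the gastrula and later a gene of rhombomere 4 and heart progenitors, was highest in YFP-negative cardiac mesoderm. It was at 73.8, 92.9 and 81.7 CPM there and at 43.0, 1.27 and 26.4 CPM in YFP-positive cardiac mesoderm. Endoderm had 3.48, 3.995 and 0 CPM, and hematopoietic mesoderm 0.240, 23.5 and 0 CPM. The YFP-negative values lay above those of every other library, and hematopoietic replicate 2 was the only one of its type with more than 1 count.

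No pair reached an adjusted p under 0.05 for Hoxb1. YFP-positive against YFP-negative cardiac mesoderm gave a log2 fold change of -1.82 ± 1.67 (adjusted p = 0.907), and YFP-negative cardiac mesoderm against endoderm 5.05 ± 1.93 (adjusted p = 0.312). From pooled counts, the ratio to endoderm was 35.4 (27.0 to 47.5) in YFP-negative, 9.64 (7.21 to 13.1) in YFP-positive and 3.95 (2.86 to 5.53) in hematopoietic mesoderm, again with counting error only. Those intervals leave out the spread between libraries, which ran from 1.27 to 43.0 CPM within the YFP-positive type.

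Per kilobase of merged exon, Hoxb1 averaged 35.7 CPM per kb and Hoxd1 24.5 CPM per kb in the YFP-negative fraction. In hematopoietic mesoderm the order differed: Hoxd1 stood at 29.4 CPM per kb, Hoxd9 at 5.62, Hoxb4 at 5.08 and Hoxb1 at 3.40. The hematopoietic Hoxd1 libraries lay above those of the other 3 genes, whose libraries overlapped and are not separated by the spread.

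**Figure D4:**
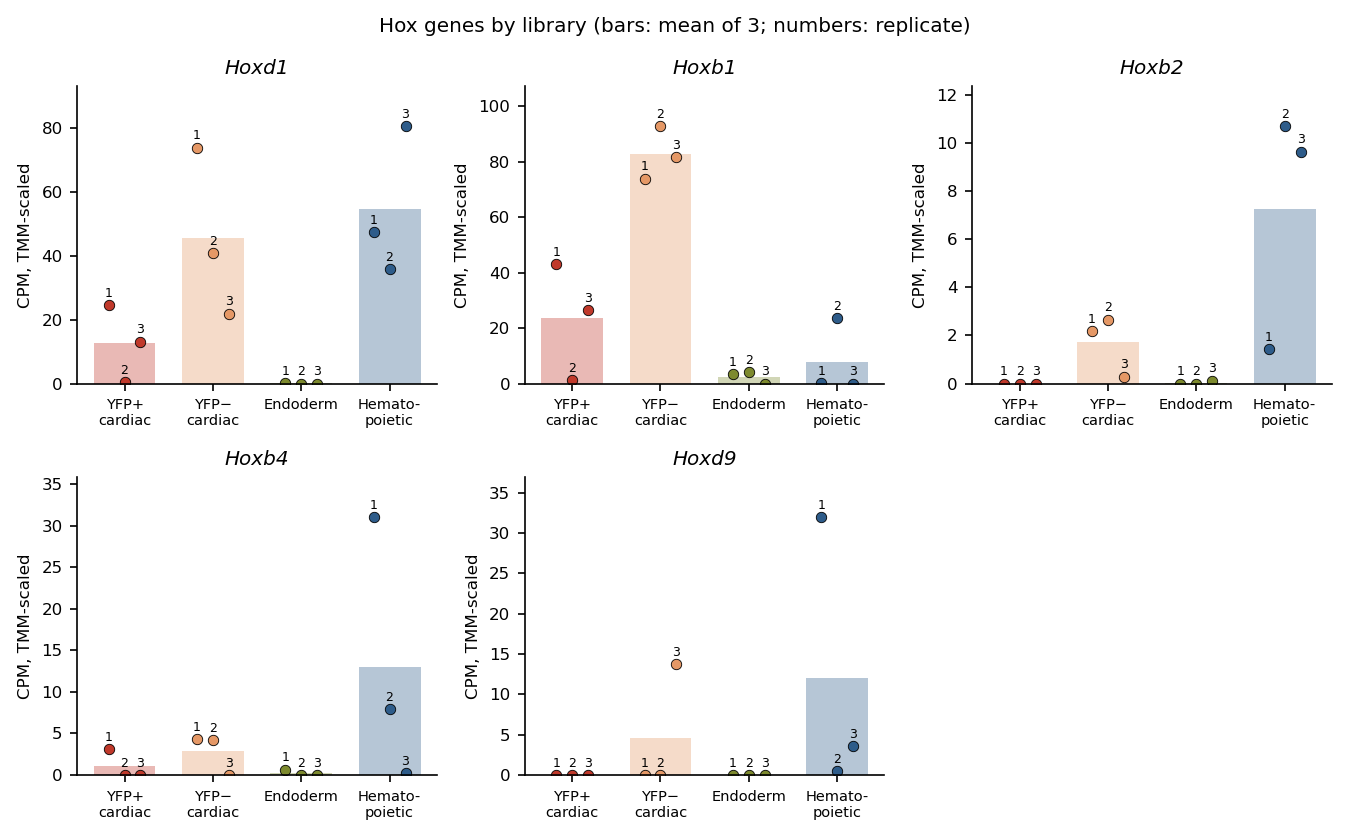
TMM-scaled CPM of 5 Hox genes by sorted type; points are libraries labelled with their replicate number, bars are the mean of 3 and start at 0. Hoxd1 and Hoxb1 are high in all YFP-negative libraries, YFP-positive replicate 2 is near 0 for both, and Hoxb4 and Hoxd9 are led by hematopoietic replicate 1.

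Hoxb2 (ENSMUSG00000075588.5, chr11:96350525-96354012, plus strand), the paralog 2 gene beside Hoxb1, was the second member called in the test over all 4 types. Hematopoietic mesoderm had 1.44, 10.7 and 9.63 CPM, YFP-negative cardiac mesoderm 2.17, 2.65 and 0.289 CPM, endoderm 0, 0 and 0.118 CPM, and YFP-positive cardiac mesoderm none. Its libraries in hematopoietic mesoderm were all above those of YFP-positive cardiac mesoderm and endoderm and overlapped with YFP-negative cardiac mesoderm. The adjusted p over 4 types was 0.0416 for Hoxb2 and 0.0162 for Hoxd1, with 6.03% of all tested genes called. Leaving out any 1 of the 12 libraries ended the Hoxb2 call (adjusted p 0.0503 to 0.147). Without any 1 endoderm library the Hoxd1 call was lost as well (0.0787, 0.0862 and 0.0900 without replicates 1, 2 and 3), while it held without any of the other 9. In the annotation, 27.3% of Hoxb2 exon bases are shared with the antisense gene Hoxb3os.

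For Hoxb2 no pair passed. It had the lowest p of the members in YFP-positive against YFP-negative cardiac mesoderm (log2 fold change -6.39 ± 1.92, adjusted p = 0.626), where no member and 0.0% of all tested genes were called. The same was true of YFP-positive cardiac against hematopoietic mesoderm (-8.47 ± 2.05, adjusted p = 0.0681), with 1.79% of all tested genes called. YFP-positive libraries were at 0, and 3 counts over the group were taken as the floor. From pooled counts, the level was at least 8.89-fold higher in YFP-negative and at least 40.6-fold higher in hematopoietic mesoderm. These bounds leave out the spread between libraries.

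The remaining members above 10 CPM in a type were Hoxb4 and Hoxd9. Hoxb4 (ENSMUSG00000038692.7, chr11:96318267-96321638, plus strand), known for expanding blood stem cells when overexpressed, was at 31.0, 7.94 and 0.209 CPM in hematopoietic mesoderm. It was at 3.11, 0 and 0 CPM in YFP-positive and 4.34, 4.19 and 0 CPM in YFP-negative cardiac mesoderm, and at 0.633, 0 and 0 CPM in endoderm. The hematopoietic libraries overlapped with those of every other type, and the adjusted p against endoderm was 0.204.

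Hoxd9 (ENSMUSG00000043342.8, chr2:74697727-74700208, plus strand), a gene of the limb and posterior trunk in later embryos, was at 31.9, 0.518 and 3.56 CPM in hematopoietic mesoderm. One YFP-negative library had 13.7 CPM and the other 8 libraries none. The hematopoietic values were above all YFP-positive and endoderm values and overlapped with YFP-negative ones. Against endoderm the adjusted p was 0.132.

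Posterior genes appeared in scattered libraries. Hoxa13, which patterns the hindgut and distal limb, was at 20.7 CPM in YFP-positive replicate 3 and 24.7 CPM in hematopoietic replicate 3 and at or below 5.45 CPM elsewhere. Hoxd13, its paralog with like roles, was at 6.18, 0.140 and 23.4 CPM in YFP-negative cardiac mesoderm, 1.66, 0 and 2.40 CPM in YFP-positive cardiac mesoderm and 0.633, 0 and 1.77 CPM in endoderm. It had no count in hematopoietic mesoderm. Hoxd13 was the member of lowest p in YFP-negative cardiac against hematopoietic mesoderm (log2 fold change 8.92 ± 2.84, adjusted p = 0.162). No member was called there, and 0.593% of all tested genes were. From pooled counts against the floor of 3 counts, its level was at least 49.0-fold higher in YFP-negative cardiac mesoderm. This bound leaves out the spread between libraries: 162 of the 200 pooled counts came from replicate 3.

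The other tested members, Hoxd3 and Hoxd8, were carried by few libraries. Hoxd3 ranged from 0 to 17.5 CPM and was over 3 counts in all 3 YFP-negative libraries (9.86, 2.52 and 0.578 CPM). Hoxd8 ranged from 0 to 16.1 CPM and had no count in YFP-positive cardiac mesoderm or endoderm. Of the untested members, Hoxb9 reached 14.6 CPM in hematopoietic replicate 1 and Hoxb3 10.2 CPM in YFP-negative replicate 2, and the highest value of any other was 6.15 CPM (Hoxd11, YFP-negative replicate 2). These 3 were singled out for their highest library after the values were seen.

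At an unadjusted p under 0.05, the members numbered 3 of 10 in YFP-positive against YFP-negative cardiac mesoderm, where 7.49% of all tested genes passed, 2 in YFP-positive cardiac mesoderm against endoderm (15.8%) and 7 in YFP-negative cardiac mesoderm against endoderm (10.3%). They numbered 4 in YFP-positive cardiac against hematopoietic mesoderm (19.5%), 1 in YFP-negative cardiac against hematopoietic mesoderm (17.4%) and 7 in endoderm against hematopoietic mesoderm (22.8%). The 10 members entered the tests through the libraries in which they were high, so these counts describe them and are no evidence about the 38.

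Hox counts jumped between libraries of one type. Of the 14 cases in which a member reached 100 counts in a library of a type, 9 had 3 counts or fewer in another library of that type. In hematopoietic mesoderm these were 5 of 6, among them Hoxa13, Hoxb1, Hoxb4 and Hoxd9, against 15.0% of all genes reaching 100 counts there. They were 2 of 3 in YFP-positive cardiac mesoderm (Hoxa13 and Hoxd1, against 9.30%) and 2 of 5 in YFP-negative cardiac mesoderm (Hoxd8 and Hoxd13, against 3.48%). In endoderm no member reached 100 counts. The shares over all genes were not matched for level. In hematopoietic mesoderm Hoxa13, Hoxb1, Hoxb4 and Hoxd9 peaked at 118, 136, 129 and 133 counts, little over the limit of 100. Whether their low level accounts for the unevenness was not tested, so these shares do not show a trait of Hox genes.

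Some other markers were uneven in the same libraries. T, Tal1 and Nkx1-2 are given as examples and do not stand for their lists. How many of the listed markers follow was not counted. YFP-positive replicate 2, lowest in Hoxb1 and Hoxd1, had 18.4 CPM of the streak gene T, against 73.5 and 104 CPM in replicates 1 and 3, and 174 CPM of the blood and endothelial gene Tal1, against 13.7 and 21.9 CPM. Hematopoietic replicate 2, the only library of its type with more than 1 count of Hoxb1, had 81.7 CPM of Nkx1-2, a gene of neuromesodermal cells, against 2.40 and 0 CPM. The list of 10 posterior streak and neuromesodermal markers summed to 504 to 931 CPM in YFP-positive, 753 to 931 in YFP-negative, 621 to 837 in endoderm and 350 to 1002 in hematopoietic libraries. None of its 9 tested genes was called in a pair, and Sox2 was called over 4 types. Wnt3a was at 0 in both cardiac fractions and in hematopoietic mesoderm, Sox2 in YFP-positive cardiac and hematopoietic mesoderm, and Cdx4 in hematopoietic mesoderm and endoderm. Cdx2 and Fgf8, of the same list as Nkx1-2, were at or under 3 counts in every hematopoietic library, replicate 2 included. The list of 14 hematopoietic and endothelial markers summed to 581 to 1079 CPM in YFP-positive, 600 to 820 in YFP-negative, 49.9 to 90.3 in endoderm and 2505 to 3315 in hematopoietic libraries. The part of these cells in the Hox values was not tested.

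Of the 9 TALE genes that encode HOX cofactors, all tested, 4 were called in at least 1 pair, each higher in a cardiac fraction or, for Meis1, also in endoderm. In YFP-positive cardiac mesoderm 2 were called against endoderm (1.54% of all tested genes) and 3 against hematopoietic mesoderm (1.79%). In the YFP-negative fraction 1 was called against endoderm (1.31%) and 1 against hematopoietic mesoderm (0.593%). Endoderm against hematopoietic mesoderm gave 1 (5.65%), and the cardiac fractions against each other 0 (0.0%). Pbx4 had no count in YFP-positive cardiac or hematopoietic mesoderm. The median log2 fold change of the list in YFP-positive cardiac mesoderm against endoderm was 1.08, beside 0.01 for all tested genes, and against hematopoietic mesoderm 0.66, beside 0.03.

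Meis1, a HOX cofactor that blood stem cells later need, was nearly missing from hematopoietic mesoderm at this stage. Its level was 67.7, 56.5 and 36.7 CPM in YFP-positive, 36.4, 38.8 and 37.3 CPM in YFP-negative, 11.9, 15.5 and 7.22 CPM in endoderm and 0.240, 0 and 0 CPM in hematopoietic libraries. No hematopoietic library overlapped with any other type. With 1 count in hematopoietic mesoderm, the fitted sizes depend on the prior count. Over hematopoietic mesoderm, Meis1 was higher by a fitted log2 fold change of 9.20 ± 1.11 (adjusted p = 0.00222) in the YFP-positive fraction, 8.69 ± 1.09 (adjusted p = 0.00422) in YFP-negative cardiac mesoderm and 6.99 ± 1.05 (adjusted p = 0.00269) in endoderm.

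Meis2, a close relative, was at 174, 96.7 and 212 CPM in YFP-positive cardiac mesoderm and 1.68, 22.8 and 1.67 CPM in hematopoietic mesoderm (log2 fold change 4.18 ± 0.92, adjusted p = 0.0426). Pbx3, a PBX partner of HOX proteins, was at 311, 306 and 349.7 CPM in YFP-positive, 375, 284 and 277 CPM in YFP-negative, 104, 141 and 128 CPM in endoderm and 158, 171 and 284 CPM in hematopoietic libraries. It was higher than in endoderm in both cardiac fractions (1.37 ± 0.24, adjusted p = 0.0108, and 1.32 ± 0.24, adjusted p = 0.0135).

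The 3 Meis1 calls held without any one library of the pair, but both cardiac ones were lost in fits of only the 2 types (adjusted p = 0.115 with YFP-positive and 0.131 with YFP-negative libraries). The Meis2 call held only without hematopoietic replicate 2 (adjusted p = 0.00210) and was lost in the other 5 such fits (0.0505 to 0.0878), in a fit of only the 2 types (0.208) and under limma voom (0.371). The Pbx3 call in YFP-positive cardiac mesoderm against endoderm was lost without endoderm replicates 1 or 3 (0.0910 and 0.0745), and that in the YFP-negative fraction without YFP-negative replicate 1 (0.0977) or any one endoderm library (0.0554 to 0.113).

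**Figure D5:**
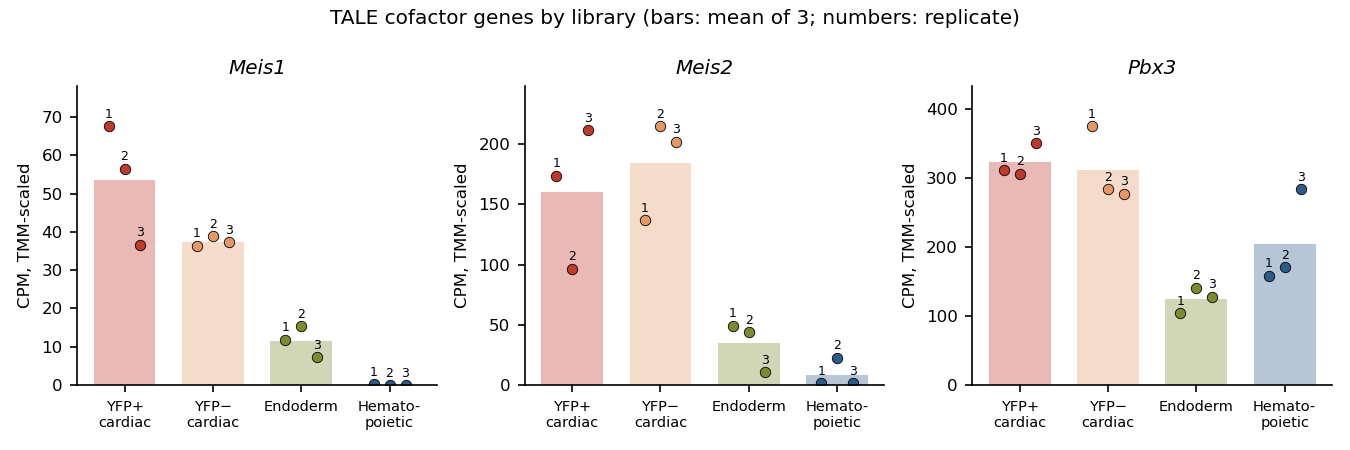
TMM-scaled CPM of 3 TALE genes by sorted type; points are libraries labelled with their replicate number, bars are the mean of 3 and start at 0. Meis1 is at or near 0 in all hematopoietic libraries, and Pbx3 is lowest in endoderm, at 104 to 141 CPM.

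Of the 10 caudal, ParaHox and related homeobox genes, 5 were tested and none was called in a pair or over 4 types by edgeR. Evx1, a streak gene next to the posterior end of Hoxa, was at 82.2, 62.04 and 96.3 CPM in YFP-negative and 7.47, 3.82 and 48.7 CPM in YFP-positive cardiac mesoderm, with 23.3, 12.4 and 21.2 CPM in endoderm and 0, 23.8 and 21.4 CPM in hematopoietic mesoderm. Its YFP-negative values lay above those of all other libraries. Gbx2, a hindbrain boundary gene also active in the streak, was at 7.52, 3.77 and 14.0 CPM in YFP-negative cardiac mesoderm and between 0 and 0.182 CPM in YFP-positive cardiac mesoderm. Hematopoietic replicate 2 had 22.6 CPM of Gbx2 and the other libraries of that type at most 0.240.

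Of 17 genes that carry posterior Wnt, FGF and retinoid signals to the clusters, 16 were tested and 1 was called, in YFP-negative cardiac mesoderm against endoderm (1.31% of all tested genes) and over 4 types (6.03%). Wnt5a, a Wnt ligand of the posterior embryo, was at 245, 263 and 246 CPM in YFP-negative cardiac mesoderm and 24.5, 10.1 and 7.10 CPM in endoderm (log2 fold change 4.18 ± 0.85, adjusted p = 0.0265). The groups did not overlap, and the call was lost without any one of the 6 libraries (adjusted p 0.0720 to 0.172).

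Of 28 Polycomb and trithorax genes, 26 were tested and 3 were called. Against endoderm 2 were called in each cardiac fraction (YFP-positive 1.54% and YFP-negative 1.31% of all tested genes), 2 in endoderm against hematopoietic mesoderm (5.65%) and 1 in YFP-positive cardiac against hematopoietic mesoderm (1.79%). Over 4 types 3 were called (6.03%). Kdm6b, which removes the Polycomb mark from histone H3, was higher than in endoderm in YFP-positive (1.04 ± 0.20, adjusted p = 0.0195) and YFP-negative cardiac mesoderm (1.01 ± 0.20, adjusted p = 0.0241). Phc1, a subunit of Polycomb complex 1, was lower than in endoderm by log2 values of -1.02 ± 0.19 (adjusted p = 0.0141) and -1.05 ± 0.19 (adjusted p = 0.0124) in the same fractions. In endoderm it was also above hematopoietic mesoderm (1.13 ± 0.19, adjusted p = 0.00516). Jarid2, a partner of Polycomb complex 2, was higher in endoderm (1.70 ± 0.22, adjusted p = 0.00127) and YFP-positive cardiac mesoderm (1.09 ± 0.22, adjusted p = 0.0303) than in hematopoietic mesoderm. The calls of endoderm against hematopoietic mesoderm held without any one library. Kdm6b lost both calls without any one endoderm library, without YFP-negative replicates 1 or 3 and without YFP-positive replicates 1 or 2 in the respective pair (adjusted p 0.0510 to 0.186). Phc1 lost its cardiac calls without endoderm replicates 1 or 2, YFP-negative replicates 1 or 2 and YFP-positive replicates 2 or 3 (0.0544 to 0.0894). Jarid2 lost that of the YFP-positive fraction without YFP-positive replicates 2 or 3 (0.0716 and 0.0835), in a fit of only the 2 types (0.290) and under limma voom (0.216). The median log2 fold change of this list lay between -0.08 and 0.18 in all 6 pairs.

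Most other genes inside the clusters gave no counts. Of 39 with a row, 29 had no count in any library, and 4 had a mean of 10 CPM or more in a type. The genes without a count included microRNA genes such as Mir10a, Mir10b and Mir196b. Whether such short RNAs can be counted in these libraries was not tested. Hotairm1, a long noncoding RNA of the Hoxa cluster, was at 46.6, 2.24 and 0.209 CPM in hematopoietic mesoderm and 18.2, 5.31 and 3.03 CPM in YFP-negative cardiac mesoderm, with at most 3.09 CPM elsewhere. Gm27861 in Hoxa was led by the same 2 libraries, with 38.4 CPM in hematopoietic replicate 1 and 12.2 CPM in YFP-negative replicate 1. Gm14424 in Hoxd was led by YFP-negative replicate 1 at 26.1 CPM and YFP-positive replicate 2 at 12.4 CPM.

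Hoxb3os, the antisense gene over Hoxb2 and Hoxb3, was at 4.36, 16.5 and 30.6 CPM in YFP-positive, 42.8, 19.98 and 21.7 CPM in YFP-negative, 0, 0.129 and 0 CPM in endoderm and 44.7, 8.98 and 0 CPM in hematopoietic libraries. It was present in all 6 cardiac libraries, 3 of which had no Hoxb2. Endoderm was lower than hematopoietic mesoderm (log2 fold change -8.11 ± 2.03, adjusted p = 0.0380), with 1 count in endoderm and replicate 3 of hematopoietic mesoderm at 0. This call was lost without endoderm replicates 1, 2 and 3 (adjusted p = 0.147, 0.127 and 0.157) and without hematopoietic replicate 1 (0.0963).

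Beyond the cluster ends, 12 of 16 protein-coding neighbours had a mean of 10 CPM or more in a type. Lnpk and Mtx2, on either side of Hoxd, were between 31.1 and 120.2 CPM and between 70.0 and 219 CPM in every library, and Hnrnpa3 behind them between 67.8 and 134 CPM. Around Hoxc, Cbx5 was between 987 and 1548 CPM, Calcoco1 between 0.960 and 125 CPM and Smug1 between 0.182 and 39.7 CPM. Around Hoxa, Hibadh was between 11.9 and 82.0 CPM, Snx10 between 6.85 and 199 CPM and Skap2 between 0.720 and 35.2 CPM. Lnpk, Mtx2 and Hnrnpa3 were thus counted in all 3 endoderm libraries, where the 8 genes of the cluster together had 0.791, 0 and 1.89 CPM.

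Around Hoxb, Snx11 was between 0 and 47.6 CPM. Skap1, a gene of T cell adhesion, was at 133, 68.4 and 3.98 CPM in hematopoietic mesoderm, 18.3, 1.09 and 34.1 CPM in YFP-positive cardiac mesoderm and at or below 0.699 CPM in the other 6 libraries. It was lower in endoderm than in hematopoietic mesoderm (log2 fold change -7.23 ± 1.66, adjusted p = 0.0280). Cbx5, which encodes a heterochromatin protein, was higher in YFP-positive cardiac mesoderm than in endoderm by a log2 value of 0.47 ± 0.09 (adjusted p = 0.0138), and endoderm differed from hematopoietic mesoderm by -0.40 ± 0.08 (adjusted p = 0.0205). Both Cbx5 calls were lost without any one endoderm library (adjusted p 0.0616 to 0.149), the first also without YFP-positive replicate 1 (0.0502) and the second in a fit of only the 2 types (0.0577). The Skap1 call was lost without any one endoderm library (0.117 to 0.125) and without hematopoietic replicate 1 (0.0754).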

How the data were processed

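RNA from sorted cells was purified with a nanoprep kit and amplified with NuGEN Ovation low-input kits, per the labels' protocols. The authors deposited raw read counts per versioned Ensembl gene. The submitters' processing notes name STAR 2.5.0a, Picard, HTSeq 0.6.0, DESeq2 and the build mm10. The annotation release and strand setting are not given in the sources used here. Reads in no gene made up 34.5% to 43.6% of each library's tally, ambiguous reads 0.502% to 0.605% and reads not aligned uniquely 35.1% to 44.8%. They stayed out of library sizes and tests.

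Groups and replicate numbers came from the sample titles. The members and gene lists were chosen with earlier results of these data known. Counts were fitted with edgeR 4.0.16 (R 4.3.3, quasi-likelihood, TMM scaling, filterByExpr) to all 12 libraries with 1 mean per type, leaving 8 residual degrees of freedom. The filter kept 14170 genes and 10 of 38 Hox genes. Tests were two-sided, and p-values were adjusted by Benjamini-Hochberg over all tested genes. The SE of each log2 fold change is its size over the root of its F statistic. The procedure was tested on simulated data. Ratios to endoderm are pooled counts over scaled library sizes with exact Clopper-Pearson intervals. Because amplified reads carry no molecular identifiers, intervals and limits of detection cover counting error only.

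Symbols were matched for 37607 genes. Coordinates, exon lengths and overlaps are from a GENCODE annotation of GRCm38, the assembly of mm10, and promoters are from RefSeq. Genes inside clusters lie between the outermost Hox genes. The text gives every library's value for members averaging 10 CPM or more in a type or called in a test. From each other list it names up to 4 genes called in most pairs, or the 2 of highest mean where none was. For the neighbours it gives those averaging 10 CPM or more. The alternatives were RLE scaling, no filter, a minimum mean of 5 CPM, a fold threshold of 1 on the log2 scale, the replicate block, only the 2 types compared, DESeq2 1.42.0, limma 3.58.1 voom with quality weights, and leaving out each library. They were run for the Hox genes and for the called genes of the other lists and neighbours. A few genes that this rule names are counted in totals and are not reported here.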

Additional observations from a re-analysis of the deposited data

How the results depend on the processing

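No Hox gene value that was called changed direction under any alternative run. The number of Hox genes called moved with the tool, always from a base of 0 to 2. Against endoderm, DESeq2 called 2 in each cardiac fraction, Hoxd1 among them. It also called 3 in endoderm against hematopoietic mesoderm (Hoxb2 and Hoxd1 among them), 1 in YFP-positive cardiac against hematopoietic mesoderm (Hoxb2) and 1 in YFP-negative cardiac against hematopoietic mesoderm (Hoxd13). In YFP-positive against YFP-negative cardiac mesoderm, edgeR, DESeq2 and voom all called 0 (0.0%, 1.63% and 0.0%). Limma voom with quality weights called 5 in YFP-negative cardiac mesoderm against endoderm (Hoxb1, Hoxb2, Hoxd1 and Hoxd3 among them, 12.8%). It called 2 in endoderm against hematopoietic mesoderm (8.65%) and 1 over 4 types (7.74%). A fit of only the 2 types called 3 in YFP-negative cardiac mesoderm against endoderm (10.1%). It called 0 in YFP-positive cardiac mesoderm against endoderm (8.28%), where Hoxd1 no longer passed the expression filter. A minimum mean of 5 CPM left 1 call over 4 types (5.90%). Leaving out 1 library gave 0 to 1 calls in each cardiac fraction against endoderm, 1 to 2 in endoderm against hematopoietic mesoderm and 0 to 2 over 4 types, and 0 in the other pairs. The cause of these differences between tools was not tested.

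With the replicate number as a block, 1 Hox gene (Hoxd1, adjusted p = 0.0258) was called over 4 types in place of 2, since Hoxb2 reached 0.114. Of all genes, 3.30% were called over 4 types with the block. No other Hox call changed. Same-numbered libraries deviated from their type means with a mean correlation of 0.01 across genes (-0.018 to 0.032 over 18 library pairs). The mean of -0.01 for other pairs follows from it, because deviations from a type mean cancel, and is no separate comparison. A small correlation over all genes does not decide whether single genes are paired. Same-numbered libraries share a date-like stamp in the names of the deposited files, whose meaning is not given. Outside the Hox genes, the block ended the calls of Hoxb3os (0.0831), Skap1 (0.0640) and Wnt5a (0.0738), those of Meis2 (0.0547) and Jarid2 (0.0634) in YFP-positive cardiac against hematopoietic mesoderm and that of Kdm6b in YFP-negative cardiac mesoderm against endoderm (0.0517). Leaving out Hox genes that share exon bases moved 2 of 16 cluster sums by more than 1 SD, those of Hoxa in YFP-negative cardiac mesoderm (from 18.6 to 3.77 CPM, a change of 79.7%) and endoderm (from 0.896 to 0.422 CPM), and other scalings moved none. Depth limits what can be said of members at or below 3 counts: they were not detectable, which does not show that they are absent.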
